A study of Mus musculus with 9 samples.

Results

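Intermediate monocytes (intMo) were set against conventional (cMo) and patrolling monocytes (pMo) at once, to find genes whose level was highest or lowest in the intermediate subset rather than graded between the other two. The 3 intMo libraries, numbered 0, 1 and 2, were chosen by their sample labels out of 9 RNA sequencing libraries, and the other 6 are 3 cMo and 3 pMo libraries with the same numbers. All 9 carry the labels primary, wt genotype and C57BL/6 background, and were grown in vitro, with no treatment, age or time point given. Per the series title, patrolling cells were made in OP9-DLL1 co-culture, where OP9-DLL1 is a stromal feeder line expressing Delta-like 1, a ligand of Notch receptors. The sources used here do not give the sorting gates. Nor do they state if the 3 libraries within a subset are separate animals or cultures, so p-values measure only the spread between these libraries.

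Mouse monocytes are circulating myeloid cells that arise in bone marrow from dividing progenitors. Conventional monocytes carry the surface glycoprotein Ly6C and enter inflamed tissue, where they can become macrophages or dendritic cells, whereas patrolling monocytes crawl along vessel walls and depend on the nuclear receptor Nr4a1. Conventional monocytes can convert into patrolling ones, and cells with an intermediate level of Ly6C are commonly placed between the ends of that path.

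Total estimated counts ran from 18455116 in intMo library 0 to 29985684 in a pMo library, and 14059 of 46517 genes had enough counts to be tested. Library 0 of each subset lay apart from libraries 1 and 2. The correlation of log2 CPM (CPM being estimated counts scaled to the size of the library) across genes was 0.986 between intMo 1 and intMo 2, but 0.951 and 0.962 between intMo 0 and each of them. The labelled order of the subsets was checked on Ly6c2, the gene of Ly6C, which had 1038, 1130 and 1401 CPM in cMo libraries 0, 1 and 2, 24.5, 256 and 207 CPM in intMo and 8.71, 75.5 and 75.3 CPM in pMo. Its intMo mean lay between the others, although intMo 0 fell inside the range of the pMo libraries. Because each library is a bulk sample, fewer cells of a type and less RNA per cell cannot be told apart.

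The place of the intMo mean among the 3 subsets was counted first. An F test over the 3 subsets in edgeR called 4644 genes at a Benjamini-Hochberg adjusted p under 0.05 (33.0% of genes tested), and the intMo mean was the middle one in 2757 of them (59.4%), the highest in 1171 (25.2%) and the lowest in 716 (15.4%). Over all genes tested it was the middle one in 49.0%, the highest in 26.1% and the lowest in 25.0%, and these orders of means carry no test against either end. The contrast of intMo with the average of both other subsets, on the log2 scale, called 925 genes higher (6.58% of genes tested) and 310 lower (2.2%), 8.78% in all. Of the 925, intMo had the highest mean in 806 (87.1%) and lay between the others in the remaining 119, and of the 310 it had the lowest mean in 282 (91.0%). A gene with a middle intMo mean can therefore pass the average contrast, and Nr4a1 is an example. Nr4a1 had 233, 260 and 201 CPM in cMo, 2307, 1535 and 1927 CPM in intMo and 5083, 4340 and 4047 CPM in pMo, and was called higher than the average (log2 0.92 ± 0.15 SE, edgeR adjusted p = 0.00592) while it lay 1.22 below pMo on the log2 scale (adjusted p = 0.00598).

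A stricter reading asked for a call against cMo and a call against pMo in the same direction. It gave 132 genes highest in intMo (0.939% of genes tested) and 76 lowest (0.541%), all 208 of them protein coding and all with the 3 intMo libraries outside the range of the other 6. Such a lack of overlap, with no test, held for 674 genes above (4.79%) and 445 below (3.17%). The comparison with cMo called 3433 genes (24.4%) and that with pMo 701 (4.99%), and since both use the same intMo libraries they are not independent. Same-numbered intMo and pMo libraries deviated together from their subset means, with correlations of 0.59, 0.3 and 0.27. Libraries 1 and 2 did so across numbers too, with 0.4 for intMo 1 and pMo 2 and 0.28 for intMo 2 and pMo 1. Such values set library 0 apart and do not show that libraries 1 and 2 are paired by number. A fit with the replicate number as a block called 329 genes higher and 507 lower than in pMo, against 238 and 463 without it, and 172 highest and 89 lowest. The count depended on the libraries, and more so for pMo. It fell to 34 highest and 27 lowest genes without pMo 1 and to 35 and 32 without pMo 2, to 66 and 39 without intMo 1 and to 62 and 40 without intMo 2. Without intMo 0 the counts were 90 and 50, and without cMo 0 there were 212 highest. Of the 208 genes, 26 highest and 23 lowest were called against both subsets in all 9 fits that left out 1 library. For the average contrast the count of higher genes fell to 500 without intMo 0 and 616 without pMo 1, and the lower ones fell to 144 without intMo 0 and to between 160 and 174 without intMo 1, intMo 2, pMo 1 or pMo 2.

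**Figure D1:**
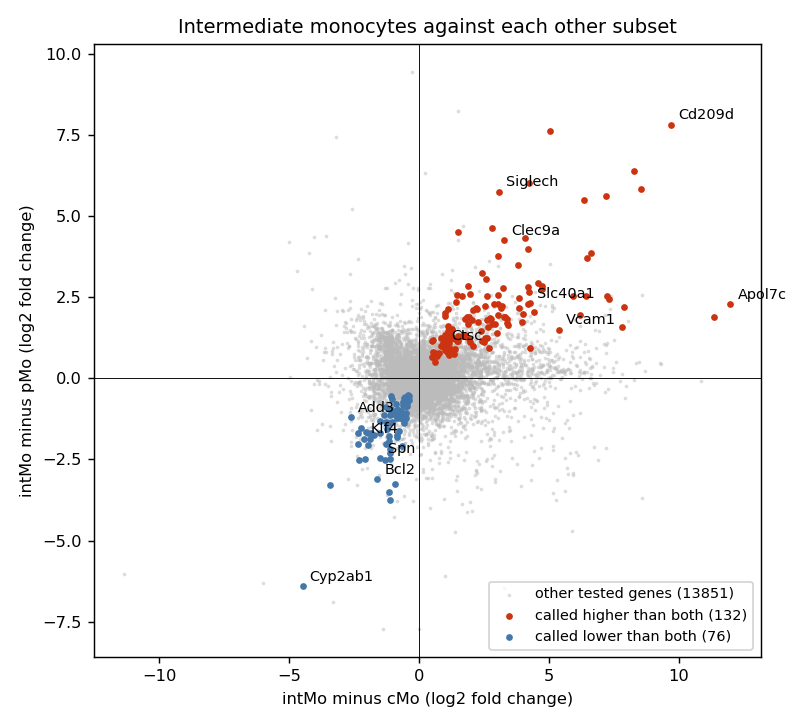
Log2 fold change of intMo over cMo (x axis) and over pMo (y axis) for all 14059 tested genes, 1 point a gene. Red points mark the 132 genes called higher in intMo than in both subsets and blue points the 76 called lower than in both, and both axes use the same intMo libraries.

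The 132 genes stood further from the other subsets than the 76 did. Of the 132, 70 had a mean of cMo and pMo under 5 CPM, against 5 of the 76. The part of such low levels in the margins was not tested. The smaller of a gene's 2 differences, called the margin here, had a median log2 of 1.67 among the highest genes, with 45 at 2 or more and 26 under 1. Among the lowest genes its median was -0.93, with 5 at 2 or more below the nearer subset and 41 by less than 1. Among the 132, cMo and pMo were not called apart for 85, pMo was called above cMo for 40 and below it for 7. Among the 76, these counts were 53, 20 and 3. Library 0 was the most extreme intMo library for most of these genes. It was the highest of the 3 in 100 of the 132 and the lowest in 54 of the 76, against 40.8% and 40.9% of all genes tested.

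Of the genes that mark the subset, Slc40a1 encodes ferroportin, the iron exporter of cells, and lies on chromosome 1 at 45908068 to 45926523 (GRCm38, minus strand). It had 19.9, 44.5 and 45.7 CPM in cMo libraries 0, 1 and 2, 1042, 557 and 519 CPM in intMo and 201, 111 and 115 CPM in pMo. All intMo libraries were above all others, and each library 0 of intMo and pMo was the highest of its subset. The average contrast was a log2 of 3.29 ± 0.33 (edgeR adjusted p = 0.000728), and the margin, over pMo, was 2.31 ± 0.41 (adjusted p = 0.0145). Without pMo 1 or pMo 2 the call against pMo ended, with adjusted p up to 0.0777. Vcam1, an adhesion molecule for leukocyte integrins that red pulp macrophages of the spleen also carry, lies on chromosome 3 at 116109949 to 116129688. Its levels were 4.89, 3.06 and 3.42 CPM in cMo, 239, 125 and 110 CPM in intMo and 52.7, 54.4 and 60.1 CPM in pMo, again without overlap. It was higher than the average by 3.44 ± 0.24 (edgeR adjusted p = 0.00015) and than pMo by 1.5 ± 0.29 (adjusted p = 0.0195), a call that ended without any 1 of the 3 pMo libraries, at up to 0.0913.

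Ctsc, a lysosomal protease that activates the serine proteases of granules, differed less but about equally from both subsets. It lies on chromosome 7 at 88278085 to 88310888 and had 755, 983 and 1159 CPM in cMo, 2108, 1848 and 1714 CPM in intMo and 744, 1026 and 1071 CPM in pMo. The differences were 0.97 ± 0.20 from cMo (edgeR adjusted p = 0.00788) and 1 ± 0.20 from pMo (adjusted p = 0.0204), and the second call ended without intMo 1, intMo 2 or any pMo library, at up to 0.0746. Cfp, which encodes properdin, the stabiliser of the alternative complement convertase, lies on chromosome X at 20925454 to 20931555. It stood at 241, 329 and 357 CPM in cMo, 761, 549 and 534 CPM in intMo and 257, 247 and 233 CPM in pMo, with differences of 0.99 ± 0.19 (edgeR adjusted p = 0.00597) and 1.32 ± 0.19 (adjusted p = 0.00566). Siglech, a sialic acid binding lectin best known from plasmacytoid dendritic cells, lies on chromosome 7 at 55768178 to 55778925. Values of 3.35, 4.57 and 4.57 CPM in cMo, 35.5, 36.3 and 33.3 CPM in intMo and 0.986, 0.525 and 0.437 CPM in pMo left wide gaps on both sides. Its average contrast was 4.41 ± 0.21 (edgeR adjusted p = 3.14e-05), and its margin, over cMo, was 3.07 ± 0.26 (adjusted p = 0.000127). The calls of Cfp and Siglech against both subsets held in all 9 fits without 1 library.

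The 250 bases before the start of 3 of the 5 genes are shown because these genes mark the subset, from the RefSeq promoter table (GRCm38.p6), 5′ to 3′ on the gene's strand, with matches to a searched motif in capitals. Slc40a1 and Vcam1 were not matched in that table.
Siglech, chr7:55767934-55768183, plus strand: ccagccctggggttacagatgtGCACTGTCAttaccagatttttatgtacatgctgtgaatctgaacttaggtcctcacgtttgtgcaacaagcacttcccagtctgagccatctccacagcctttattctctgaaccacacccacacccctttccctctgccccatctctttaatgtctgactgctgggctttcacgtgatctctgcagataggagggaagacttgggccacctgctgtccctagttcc
Ctsc, chr7:88277835-88278084, plus strand: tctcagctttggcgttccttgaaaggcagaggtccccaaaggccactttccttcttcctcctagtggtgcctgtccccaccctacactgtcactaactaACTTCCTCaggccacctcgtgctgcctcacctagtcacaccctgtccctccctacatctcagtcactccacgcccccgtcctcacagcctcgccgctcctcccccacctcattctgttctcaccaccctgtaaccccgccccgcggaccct
Cfp, chrX:20931556-20931805, minus strand: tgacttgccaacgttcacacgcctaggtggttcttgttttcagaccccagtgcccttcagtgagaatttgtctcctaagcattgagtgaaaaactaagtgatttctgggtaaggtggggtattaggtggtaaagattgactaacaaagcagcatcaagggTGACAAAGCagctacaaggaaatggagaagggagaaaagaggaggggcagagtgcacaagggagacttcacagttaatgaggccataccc
The PU.1 box GAGGAAGT, the letters of an ETS site used by the myeloid factor PU.1, was searched on both strands and stood on the reverse strand of Ctsc at -151 to -144. The antioxidant response element TGACNNNGC, used by the factor Nrf2, stood on the reverse strand of Siglech at -228 to -220 and on the forward strand of Cfp at -90 to -82. Neither the ETS-IRF composite element nor the NF-kB element was in these 3 windows. Over all 32851 promoters of the table the PU.1 box was in 2.44%, against 3.01% of 133 promoters of 101 of the highest genes and 3.75% of 80 promoters of 59 of the lowest. The antioxidant element was in 10.2% of all promoters, 10.5% of those of the highest and 15.0% of those of the lowest genes. The composite element was in 2.3%, 3.76% and 3.75%, and the NF-kB element in 0.356% of all promoters and none of the others. Such matches are letters in a window and say nothing of binding.

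Among genes with at least 20 CPM in intMo, the largest margins belonged to Siglech and then Dmpk, a serine-threonine kinase, Tlr12, a Toll-like receptor for the profilin of parasites, and Gbp2b, an interferon-inducible GTPase. Dmpk had 2.63, 16.2 and 12.1 CPM in cMo, 61.8, 54.3 and 67.6 CPM in intMo and 9.16, 6.51 and 6.25 CPM in pMo, with a margin of 2.57 ± 0.52 over cMo (edgeR adjusted p = 0.00858). Tlr12 had 95.6, 32.0 and 40.5 CPM in intMo, against 0.792 to 1.09 CPM in cMo and 5.73 to 16.1 CPM in pMo (margin 2.52 ± 0.49 over pMo, edgeR adjusted p = 0.0204). Gbp2b stood at 33.2, 39.7 and 32.8 CPM in intMo, at no more than 0.504 CPM in cMo and between 5.64 and 8.18 CPM in pMo (margin 2.43 ± 0.48, edgeR adjusted p = 0.0217). The calls of all 3 against pMo ended without pMo 1 or pMo 2, and that of Gbp2b also without intMo 1 or intMo 2, at up to 0.124. Gbp2b and the next gene, Apol7c, have close paralogs, so the share of reads given to each copy is uncertain.

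Apol7c, an apolipoprotein L family member, was all but missing from cMo, with 2 counts in all against 7917 in intMo, a ratio of 4554 with a 95% counting interval of 1260 to 37610. In CPM it had 169, 97.6 and 82.0 in intMo and 33.5, 19.6 and 18.2 in pMo (margin 2.29 ± 0.33, edgeR adjusted p = 0.00611). Nxpe5, a gene of unclear function, had 21.9, 29.5 and 30 CPM in cMo, 354, 181 and 190 CPM in intMo and 69.3, 47.2 and 44.4 CPM in pMo (margin 2.17 ± 0.29, edgeR adjusted p = 0.00428). Bank1, a signalling scaffold first known from B cells, was even among libraries, with 9.21, 12.6 and 15.4 CPM in cMo, 132, 127 and 110 CPM in intMo and 31.6, 33.4 and 35.3 CPM in pMo (margin 1.88 ± 0.18, edgeR adjusted p = 0.000958). None of these last 3 genes lost its calls when 1 library was left out. Tspan15, a tetraspanin that guides the protease ADAM10, and Abcc3, an exporter of organic anions, had margins of 1.95 ± 0.44 (edgeR adjusted p = 0.0386) and 1.87 ± 0.41 (adjusted p = 0.0332), each over pMo. Both calls were sensitive, ending in 6 and 5 of the 9 fits (Tspan15 without cMo 1, any intMo library, pMo 1 or pMo 2, Abcc3 without cMo 1, cMo 2, intMo 2, pMo 1 or pMo 2), at up to 0.175 and 0.153. That of Abcc3 also ended with no filter on low counts.

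**Figure D2:**
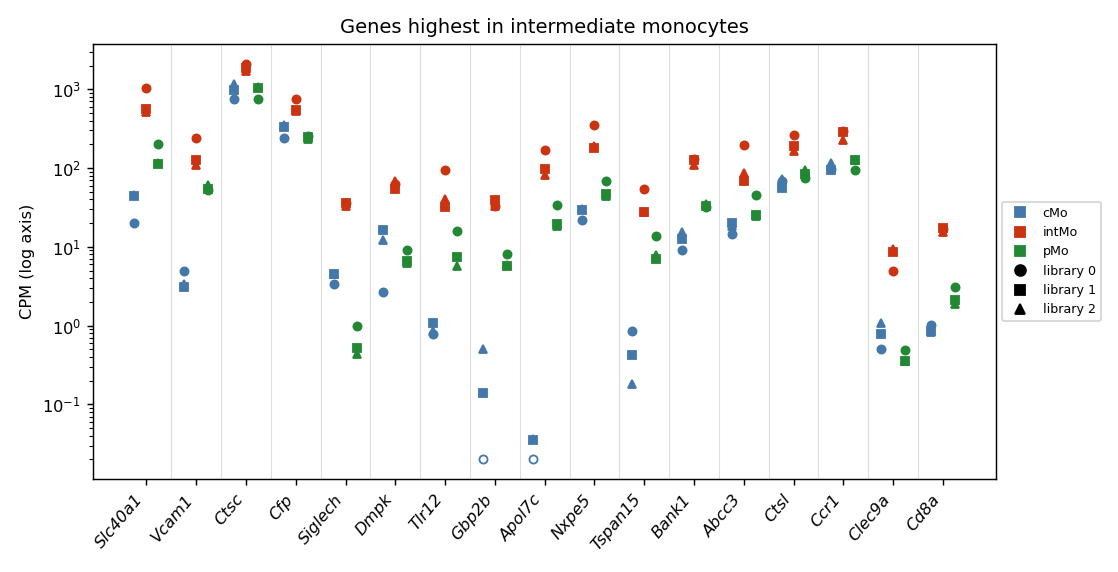
CPM of genes highest in intMo in each library, on a log axis, with 3 points per subset and the point's shape giving the library number. Open points at the bottom stand for 0 counts, and in every gene drawn the 3 intMo points lie above the other 6.

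Genes of dendritic cells were often called higher in the subset, as were the macrophage and stromal genes given below. Counts of list members called are those of edgeR without a replicate block, unless another tool or fit is named. Over all genes tested, 6.58% were called higher and 2.2% lower than the average, 0.939% above both subsets and 0.541% below both. Of 15 tested genes of plasmacytoid dendritic cells, 7 were called higher than the average, none lower, and 4 were called above both subsets, with a median log2 of 1.21 against -0.01 over all genes. Besides the marker Siglech these were Ly6d, a surface protein of lymphoid progenitors, and, named after their values were seen, Ccr9, a homing receptor, and Pacsin1, a membrane-bending adaptor. Ly6d had 0.972, 0.457 and 0.396 CPM in cMo, 18.8, 8.83 and 6.96 CPM in intMo and 0.493, 0.035 and 0 CPM in pMo (margin 4.23 ± 0.82, edgeR adjusted p = 0.00694), and was highest in intMo 0. Pacsin1 had no more than 0.211 CPM in cMo, 4.82, 4.20 and 5.64 CPM in intMo and at most 0.986 CPM in pMo (log2 2.75 over pMo, edgeR adjusted p = 0.00279). Ccr9 had 6.33, 6.58 and 7.39 CPM in intMo, and its call against pMo (log2 1.69, edgeR adjusted p = 0.0187) ended without intMo 1, intMo 2 or any pMo library, at up to 0.0822. The summed level of the 15 tested genes, which counts more abundant members most, was 596 to 726 CPM in cMo, 1247 to 1573 in intMo and 1234 to 1290 in pMo, so that intMo and pMo overlapped. The part of such cells in the results was not tested.

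In the list of 16 genes of conventional dendritic cells, intMo had the highest mean in 7. Of the 16, 9 were called higher, none lower and 2 above both, with a median log2 of 1.32. The pair was Clec9a, a receptor for dead cells on cross-presenting dendritic cells, and Itgae, the integrin subunit CD103. Clec9a had 0.504, 0.773 and 1.08 CPM in cMo, 4.93, 8.62 and 9.45 CPM in intMo and 0.493, 0.350 and 0.350 CPM in pMo (margin 3.28 ± 0.38, edgeR adjusted p = 0.000623), with intMo 0 the lowest of its subset. It overlaps Clec1b on the same strand, and Itgae overlaps Haspin on the other, so their counts are uncertain. Itgae had 3.32, 3.57 and 3.68 CPM in intMo against at most 1.19 CPM elsewhere (margin 1.82 ± 0.33, edgeR adjusted p = 0.0159), a call that ended without intMo 1, intMo 2 or any pMo library, at up to 0.0778. Without cMo 1, any intMo library, pMo 1 or pMo 2, 6 genes of the list were called higher. Flt3, the cytokine receptor of dendritic cell progenitors and named after its values were seen, had 34.9, 17.1 and 19.3 CPM in intMo, of which intMo 0 was inside the cMo range, with 33.7 to 36.5 CPM in cMo and 0.699 to 5.67 CPM in pMo. The list's summed level was 190 to 420 CPM in cMo, 340 to 614 in intMo and 363 to 551 in pMo.

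Cd8a, a T cell coreceptor also found on some dendritic cells, was one of the steadiest genes highest in intMo. It had 1.01, 0.844 and 0.828 CPM in cMo, 16.6, 17.5 and 15.2 CPM in intMo and 3.08, 2.14 and 1.88 CPM in pMo (margin 2.80 ± 0.24, edgeR adjusted p = 0.000699). Il7r, the receptor for interleukin 7, had 12.1, 10.4 and 11.0 CPM in intMo against at most 5.75 CPM elsewhere (margin 1.67 ± 0.37, edgeR adjusted p = 0.0345), a call that ended in 7 of the 9 fits, all but those without cMo 0 or pMo 0, at up to 0.147. In the lymphoid list 4 of 11 tested genes were called higher and none lower (1 lower without cMo 2), with a median log2 of 0.77. The list sum was 22.2 to 40.8 CPM in cMo, 62.5 to 110 in intMo and 33.3 to 59.6 in pMo. Of members named after their values were seen, Cd4, a T cell coreceptor, was called higher than the average (log2 3.68, edgeR adjusted p = 0.0145). That call ended without intMo 0, at 0.0683. The T cell gene Cd3e stayed near 0, with 16 counts over the 3 intMo libraries and 10 over the pMo libraries. The part of lymphoid cells in the results was not tested.

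Further genes of this kind were named after their values were seen. Cd209d, a lectin of the DC-SIGN family with close paralogs, had 6.00, 3.01 and 3.15 CPM in intMo, 0 counts in cMo and 1 in pMo. That put it at least 107-fold above cMo (floor of 3 counts over the subset) and at 307 times pMo, with a 95% counting interval of 54.7 to 12180. Havcr1, a receptor for phosphatidylserine on dying cells, had 0.965, 2.04 and 2.35 CPM in intMo and 0 counts in cMo, which is at least 52.5-fold higher. Cd207, the lectin langerin, had 1.82, 4.03 and 3.45 CPM in intMo and no more than 0.352 CPM elsewhere (margin 3.97 ± 0.94, edgeR adjusted p = 0.0454). The calls of Havcr1 and Cd207 against pMo ended in 4 and 7 of the 9 fits (Havcr1 without intMo 1, intMo 2, pMo 1 or pMo 2, Cd207 in all but those without cMo 0 or intMo 0), at up to 0.0735 and 0.16. Ikzf2, a zinc finger factor, had 4.07, 3.48 and 4.08 CPM in intMo and between 1.44 and 1.70 CPM in the other 6 libraries (margin 1.27 ± 0.24, edgeR adjusted p = 0.0179). Its call ended without intMo 1, intMo 2 or any pMo library, at up to 0.109.

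The iron list held 22 genes of iron handling and of red pulp macrophages, which recycle the iron of red cells. Of these, 6 were called higher than the average and none lower, 2 of them above both subsets (Slc40a1 and Vcam1), with a median log2 of 0.38. Spic, the transcription factor of red pulp macrophages and named after its values were seen, had 7.38, 13.7 and 18.4 CPM in cMo, 381, 336 and 265 CPM in intMo and 175, 189 and 193 CPM in pMo. All its intMo libraries were the highest and the average contrast was 2.73 ± 0.23 (edgeR adjusted p = 0.000303), but the difference of 0.82 from pMo was not called (adjusted p = 0.144). Of 2 more members named after their values were seen, Hmox1, which breaks down haem, overlapped in all subsets (75.4 to 131 CPM in intMo, 59.7 to 110 in cMo and 79.5 to 96.6 in pMo). Fth1, the ferritin heavy chain, had 1918 to 2523 CPM in intMo, above the 953 to 1075 in cMo and overlapping the 2431 to 2700 in pMo. Trf, the iron carrier transferrin, lay outside the list and was named after its values were seen. It had 64.0, 97.3 and 101 CPM in cMo, 777, 427 and 403 CPM in intMo and 242, 217 and 222 CPM in pMo (margin 1.24 ± 0.27, edgeR adjusted p = 0.0315), a call that ended without cMo 1 or any pMo library (up to 0.138) and with the replicate block (adjusted p = 0.0578).

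Macrophage genes were higher in intMo, mostly without a call against pMo. Of 20 tested, 11 were called higher, 2 lower and none above both subsets, with a median log2 of 1.67, and intMo had the highest mean in 14. The count above both was 5 with DESeq2, 1 with limma voom, 1 with the replicate block and 6 without cMo 0. C1qa, a chain of the first complement component and named after its values were seen, had 6.77, 18.2 and 22.9 CPM in cMo, 892, 387 and 376 CPM in intMo and 212, 88.8 and 90.0 CPM in pMo. The average contrast was 3.60 ± 0.45 (edgeR adjusted p = 0.00193), and the difference of 2.08 from pMo was not called (adjusted p = 0.0664). Mertk, a kinase receptor through which phagocytes clear apoptotic cells, also named after its values were seen, had 397, 200 and 230 CPM in intMo against 108, 99.0 and 98.7 CPM in pMo (average contrast 2.96 ± 0.36, edgeR adjusted p = 0.00167, and adjusted p = 0.105 against pMo). The members that fell, named for that reason, were Trem2, a lipid receptor (log2 -0.86 ± 0.17, edgeR adjusted p = 0.0125), whose call ended without intMo 0 or intMo 2 at up to 0.0554, and Gpnmb, a transmembrane protein seen in foamy macrophages (log2 -1.65 ± 0.26, edgeR adjusted p = 0.00526). Apoe, the most abundant member, had 2531, 1169 and 1143 CPM in intMo and 1028 to 1227 CPM in pMo and was not called (edgeR adjusted p = 0.0567). Library 0 mattered here, as the summed level of the list was 11447 CPM in intMo 0 and from 6383 in the other intMo libraries, with 774 to 2192 in cMo and 3869 to 4763 in pMo. Without intMo 0, 8 genes were called higher and 1 lower.

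Complement and cathepsin genes had few members called above both subsets beside the markers. In the complement list 5 of 17 tested genes were called higher and 1 lower, against 6.58% and 2.2% of all genes tested. The median log2 was 0.55, and Cfp was the 1 called above both subsets. The gene called lower was C3, the central complement protein (named after its values were seen), with 762, 1059 and 834 CPM in cMo, 214, 403 and 503 CPM in intMo and 595, 814 and 771 CPM in pMo (log2 -1.10 ± 0.26, edgeR adjusted p = 0.0293), a call that ended without cMo 1, intMo 1, pMo 1 or pMo 2, at up to 0.0766. With the replicate block it was also called below pMo (log2 -1.01, adjusted p = 0.032). Of 17 cathepsins and their inhibitors, 2 were called higher, both against both subsets, and none lower, with a median log2 of 0.42, while DESeq2 called 4 higher and 2 lower. They were Ctsc and Ctsl, a lysosomal protease that helps to trim antigens, which had 68.6, 56.5 and 73.5 CPM in cMo, 263, 193 and 164 CPM in intMo and 74.0, 85.1 and 93.4 CPM in pMo (margin 1.30 ± 0.19, edgeR adjusted p = 0.00676). None of 20 lysosome genes was called in the average contrast by edgeR or limma voom, with a median log2 of 0.16, while 4 had an unadjusted p under 0.05 and DESeq2 called 2 higher and 1 lower.

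The chemokine receptor gene Ccr1 was highest in intMo. Its product binds CCL3 and related chemokines, and it had 96.2, 93.9 and 116 CPM in cMo, 291, 286 and 228 CPM in intMo and 94.1, 125 and 125 CPM in pMo (margin 1.22 ± 0.16, edgeR adjusted p = 0.00407). It kept its calls against both subsets in all 9 fits. In the list of 24 chemokine receptors and integrins, 8 were called higher and 1 lower than the average, with a median log2 of -0.03. The lower one was Itgb3, the integrin beta 3 subunit and named after its values were seen, with 6.59, 4.80 and 8.32 CPM in intMo, 9.25 to 14.4 in cMo and 53.8 to 79.5 in pMo (margin -0.92, edgeR adjusted p = 0.0305 against cMo). That call ended without cMo 0, cMo 1, intMo 0 or intMo 1, at up to 0.0847, and with limma voom. Of 17 chemokine genes, 4 were called higher and 1 lower, with a median log2 of 1 and a median difference of -0.66 from pMo, and 2 were called higher without cMo 1, intMo 0, pMo 1 or pMo 2 and with the replicate block, which called 2 lower. The lower one was Ccl9, a CCR1 ligand, with 207, 398 and 475 CPM in cMo, 92.3, 123 and 110 CPM in intMo and 332, 376 and 386 CPM in pMo (margin -1.73 ± 0.27, edgeR adjusted p = 0.00236). Ccr1 was highest and this ligand lowest in the same 3 libraries, and a link between them was not tested.

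Genes of prostanoid synthesis, all named after their values were seen, are given beside the receptor Ptgir. They are not a tested group. Ptgs1, the cyclooxygenase that starts prostanoid synthesis, had 57.7, 29.9 and 30.8 CPM in cMo, 83.1, 77.5 and 79.5 CPM in intMo and 17.0, 22.7 and 20.1 CPM in pMo (margin 1.02 ± 0.25, edgeR adjusted p = 0.0169), though the call against cMo ended without cMo 1 or cMo 2. Tbxas1, the thromboxane synthase, had 119, 58.1 and 57.2 CPM in intMo and 19.4 to 30.2 CPM elsewhere (margin 1.67 ± 0.29, edgeR adjusted p = 0.013), a call that ended without pMo 1 or pMo 2 at up to 0.0712. It overlaps Hipk2 on the other strand. Ptgis, the prostacyclin synthase, had 0 counts in cMo, 20.6, 7.98 and 9.05 CPM in intMo and 3.78, 2.87 and 3.50 CPM in pMo. It stood at least 324-fold above cMo and 1.89 ± 0.41 above pMo on the log2 scale (edgeR adjusted p = 0.0459), a call that ended in 6 of the 9 fits, those without cMo 1, intMo 1, intMo 2 or any pMo library, at up to 0.192. Ptgs2, the inducible cyclooxygenase, had 20.5, 35.6 and 28.9 CPM in intMo and 13.6, 21.7 and 21.0 CPM in pMo and was not called apart from pMo (log2 0.59, edgeR adjusted p = 0.504). Ptgir, the prostacyclin receptor, was lowest in intMo, with 35.1, 45.9 and 45.8 CPM in cMo, 6.70, 13.5 and 12.5 CPM in intMo and 38.7, 49.7 and 46.7 CPM in pMo (margin -1.95 ± 0.25, edgeR adjusted p = 0.00102).

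Some other genes highest in intMo, also named after their values were seen, encode receptors and secreted proteins. The purine nucleotide receptor P2ry12 had 23.4, 29.2 and 26.9 CPM in intMo and at most 12.2 CPM elsewhere (margin 1.30 ± 0.25, edgeR adjusted p = 0.0196). P2ry14, a receptor for UDP sugars, had 24, 33.0 and 27.8 CPM and at most 11.3 CPM elsewhere (margin 1.33 ± 0.25, edgeR adjusted p = 0.0183). Both lie opposite to Med12l on the same stretch of chromosome 3, so their counts are uncertain, and both calls ended without intMo 1, intMo 2 or any pMo library, at up to 0.0898. Il18bp, the decoy receptor of interleukin 18, overlaps Numa1 on the other strand and had 23.7, 17.6 and 16.8 CPM in intMo, 3.30 to 3.99 in cMo and 8.54 to 8.92 in pMo (margin 1.16 ± 0.18, edgeR adjusted p = 0.00882, and 0.0536 without pMo 1). Cd300c, a receptor of myeloid cells, had 8.85, 8.32 and 8.22 CPM in intMo and at most 2.81 CPM elsewhere (margin 1.81 ± 0.27, edgeR adjusted p = 0.00709). Spon1, the matrix protein F-spondin, had 103, 65.5 and 70.3 CPM in intMo, at most 0.504 CPM in cMo and 22.7 to 32.0 CPM in pMo (margin 1.59 ± 0.28, edgeR adjusted p = 0.0124), a call that ended without pMo 1 or pMo 2, at up to 0.0743.

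Genes lowest in intMo included regulators of monocyte survival and fate. Bcl2, the survival factor of the mitochondrial membrane, had 26.1, 13 and 13.3 CPM in cMo, 6.97, 5.35 and 5.04 CPM in intMo and 61.3, 42.6 and 45.6 CPM in pMo (margin -1.60 ± 0.30, edgeR adjusted p = 0.00551). Spn, the surface sialoglycoprotein CD43 that marks patrolling monocytes, had 332, 273 and 227 CPM in cMo, 57.2, 111 and 129 CPM in intMo and 619, 529 and 504 CPM in pMo (margin -1.48 ± 0.28, edgeR adjusted p = 0.00587). Klf4, a transcription factor that monocytes need, had 129, 174 and 150 CPM in cMo, 56.2, 22.5 and 25.6 CPM in intMo and 173, 106 and 98.4 CPM in pMo (margin -1.86 ± 0.36, edgeR adjusted p = 0.021). Its call against pMo ended without intMo 1, intMo 2, pMo 0 or pMo 1, at up to 0.0858. Klf2, a factor of leukocyte quiescence named after its values were seen, had 32.3, 37.3 and 44.0 CPM in intMo, 71.6 to 99.9 in cMo and 111 to 193 in pMo (log2 -1.17 from cMo, edgeR adjusted p = 0.00619). Cebpb, a transcription factor of patrolling monocyte survival and likewise named, had 140, 175 and 185 CPM in intMo against 217 to 255 in cMo and 325 to 452 in pMo, and its call against cMo was marginal (log2 -0.51, edgeR adjusted p = 0.0474) and ended in 8 of the 9 fits, all but that without pMo 0, and with upper quartile scaling, other filters on low counts or the replicate block (adjusted p = 0.0668).

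These genes belong to the list of 24 patrolling monocyte genes, apart from Klf4. In that list 5 were called higher than the average and 6 lower, 4 of them below both subsets (Bcl2, Spn, Klf2 and Cebpb), with a median log2 of 0.06. Its median difference was 1.80 from cMo and -1.45 from pMo, and intMo had the middle mean in 16. S1pr5, the sphingosine receptor that lets patrolling monocytes leave the marrow, was named after its values were seen. It stood at 44.2, 42.0 and 37.5 CPM in pMo, at 0.107, 0.212 and 0.232 CPM in intMo and at 0.828, 0.211 and 0.504 CPM in cMo, so that intMo and cMo overlapped. Of 17 conventional monocyte genes, 1 was called higher and none lower, with a median log2 of -0.54, and intMo had the middle mean in 12. That call was lost in 7 of the 9 fits, all but those without cMo 1 or intMo 1. DESeq2 called 4 lower, limma voom 1 and the fit with the replicate block 2. Lyz2, lysozyme of myeloid cells and the most abundant, had 2273, 5871 and 4627 CPM in intMo and was not called (log2 -0.96 ± 0.36, edgeR adjusted p = 0.15), but it was with the replicate block (adjusted p = 0.00848).

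By margin the lowest gene among those averaging at least 20 CPM over the cMo and pMo libraries together was Tgfbr3, the TGF-beta co-receptor betaglycan, with 17.7, 20.1 and 21.0 CPM in cMo, 2.57, 3.99 and 5.2 CPM in intMo and 21.0, 22.7 and 24.7 CPM in pMo (margin -2.31 ± 0.24, edgeR adjusted p = 0.000346). Slc2a6, a sugar transporter of lysosomes, had 43.6, 70.3 and 67.5 CPM in cMo, 8.47, 16.1 and 17.9 CPM in intMo and 58.7, 94.0 and 87.9 CPM in pMo (margin -2.09 ± 0.31, edgeR adjusted p = 0.00195). Osbpl3, an oxysterol binding protein, had 44.1, 46.2 and 41.9 CPM in cMo, 8.58, 10.3 and 9.51 CPM in intMo and 31.7, 24.6 and 25.6 CPM in pMo (margin -1.53 ± 0.15, edgeR adjusted p = 0.000958). Lrrc8b, a subunit of the volume-regulated anion channel, had 7.67, 7.30 and 8.59 CPM in intMo against 20.5 to 36.5 CPM elsewhere (margin -1.67 ± 0.19, edgeR adjusted p = 0.00206). The calls of these 4 genes, and those of Bcl2, Spn, Klf2, Ptgir and Ccl9, held in all 9 fits. Ccdc88c, a partner of Dishevelled, had 8.63, 18.9 and 26.7 CPM in intMo against 65.1 to 114 CPM elsewhere (margin -2.03 ± 0.37, edgeR adjusted p = 0.0156), and lost its call without intMo 1, pMo 1 or pMo 2 (up to 0.0645). S100a4, a calcium-binding protein of motile cells, had 79.6, 88.2 and 81.6 CPM in intMo against 189 to 610 CPM elsewhere (margin -1.70 ± 0.36, edgeR adjusted p = 0.0285), and lost its call without any 1 of the 6 intMo and pMo libraries, at up to 0.112.

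Others among the 76 were named after their values were seen. Cyp2ab1, a cytochrome P450, had the lowest values, with 0, 0.212 and 0.166 CPM in intMo, 0.936, 4.57 and 3.82 CPM in cMo and 14.3, 11.1 and 9.92 CPM in pMo (margin -4.48 ± 0.76, edgeR adjusted p = 0.00347). L1cam, an adhesion molecule, had 8.20, 7.68 and 10.5 CPM in intMo, 13.9, 24.8 and 19.3 CPM in cMo and 141, 105 and 107 CPM in pMo (margin -1.13 ± 0.23, edgeR adjusted p = 0.0085), and it overlaps Arhgap4 and Avpr2. Ceacam1, an adhesion receptor that inhibits signalling, had 36.1, 73.8 and 76.6 CPM in intMo against 125 to 143 CPM in cMo and 280 to 389 CPM in pMo (margin -1.10 ± 0.26, edgeR adjusted p = 0.0165). Csf2ra, the GM-CSF receptor alpha chain, was a small but even difference, with 334, 366 and 330 CPM in cMo, 231, 211 and 268 CPM in intMo and 443, 421 and 417 CPM in pMo (margin -0.54 ± 0.12, edgeR adjusted p = 0.014). Thbd, the anticoagulant receptor thrombomodulin, had 15.9, 16.0 and 15.5 CPM in intMo against 21.8 to 24.7 CPM in cMo and 37.2 to 46.3 CPM in pMo (margin -0.58 ± 0.13, edgeR adjusted p = 0.0131). Adora2b, an adenosine receptor, had 3.16, 2.84 and 2.59 CPM in intMo against 5.87 to 8.21 CPM in cMo and 11.1 to 12.3 CPM in pMo (margin -1.27 ± 0.20, edgeR adjusted p = 0.00236). None of these 6 genes lost a call against either subset when 1 library was left out.

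**Figure D3:**
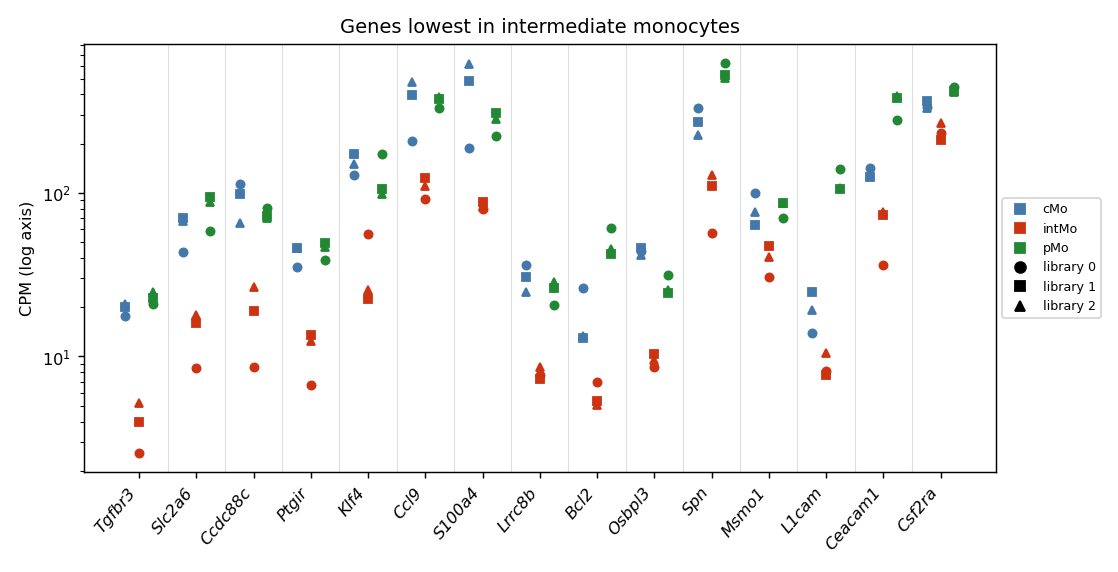
CPM of genes lowest in intMo in each library, on a log axis, with 3 points per subset and the point's shape giving the library number. In every gene drawn the 3 intMo points lie below the other 6.

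Sterol synthesis genes were lowest in intMo as a group. The intMo mean was below both others for all 18 members (17 of 18 with upper quartile scaling), the median log2 was -0.81 against -0.01 over all genes, and 8 were called lower and none higher in the average contrast. Their summed level was 1641 to 2874 CPM in cMo, 736 to 1060 in intMo and 1278 to 1428 in pMo, with no overlap, and the lowest value was that of intMo 0. Msmo1, a sterol demethylating oxidase, was the 1 member called below both subsets, with 100, 63.8 and 76.5 CPM in cMo, 30.5, 47.3 and 40.6 CPM in intMo and 70.4, 86.5 and 86.6 CPM in pMo (margin -1.02 ± 0.21, edgeR adjusted p = 0.0085). Its call against pMo ended without intMo 2, pMo 1 or pMo 2, at up to 0.0996. Cyp51, a demethylase of the same pathway named after its values were seen, had 36.6, 56.8 and 49.2 CPM in intMo against 85.3 to 144 CPM in cMo and 80.8 to 94.8 CPM in pMo (log2 -1.05 ± 0.20, edgeR adjusted p = 0.0113). The count of 8 fell to 2 without intMo 0, to 3 without intMo 1 or pMo 1, to 4 without pMo 2, and to 5 without intMo 2 or pMo 0, and it was 4 with the replicate block, 15 with DESeq2 and 14, with 7 below both subsets, in libraries 1 and 2 alone. Without intMo 0, intMo had the lowest mean for 16 of the 18. Among 13 LXR and cholesterol efflux genes, 2 were called higher and 2 lower, with a median log2 of 0.16, and the lower count was 0 without intMo 0 or intMo 1. The higher count was 1 without intMo 0, intMo 2 or any pMo library and with the replicate block, 3 without cMo 0 and 4 with DESeq2.

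For DNA replication and cell division genes the intMo mean was the middle one in all 24, none was called in the average contrast by edgeR, DESeq2 or limma voom or had an unadjusted p under 0.05, and the median log2 was -1.26 from cMo and 1.17 from pMo. Mki67, a protein of cycling cells, had 652, 1011 and 988 CPM in cMo, 93.1, 492 and 555 CPM in intMo and 81.4, 153 and 202 CPM in pMo, with intMo 0 inside the pMo range (log2 0.08 ± 0.49, edgeR adjusted p = 0.954, a sign that turned in other fits). The list sum was 740 CPM in intMo 0 and up to 3095 in the other intMo libraries. None of 9 mitochondrial transcripts was called by any of these tools or had an unadjusted p under 0.05 in edgeR (median log2 -0.12), and intMo had the middle mean in all 9.

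**Figure D4:**
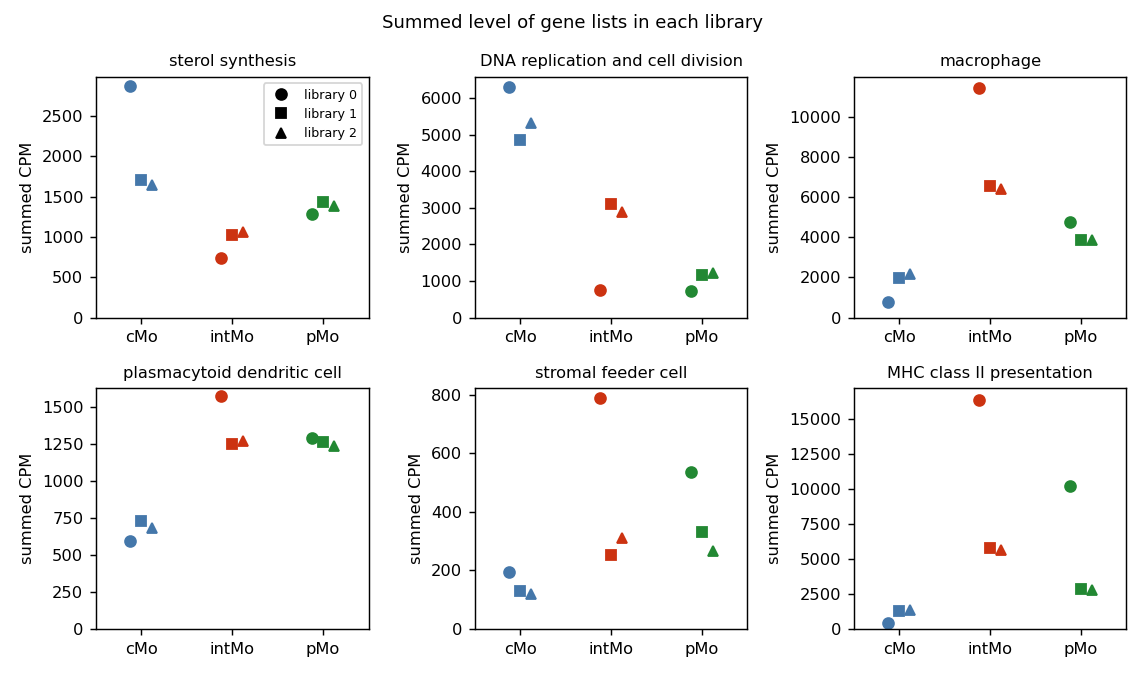
Summed CPM of the tested members of 6 gene lists in each library, with the point's shape giving the library number and each vertical axis starting at 0. Sterol synthesis genes are lowest in all 3 intMo libraries, division genes lie between the other subsets except in intMo 0, and in the macrophage, stromal and MHC class II lists intMo 0 is far above intMo 1 and 2.

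Genes of antigen presentation and inflammation were counted next. Of 14 MHC class II presentation genes, 1 was called higher and none lower, with a median log2 of 0.96, while DESeq2 called 9 higher. Cd74, the invariant chain, had 76.0, 527 and 506 CPM in cMo, 7414, 2445 and 2478 CPM in intMo and 4374, 1298 and 1264 CPM in pMo (log2 2.15 ± 0.64, edgeR adjusted p = 0.073). The ranges of intMo and pMo overlapped, although each intMo library was above the pMo library of its number, and with the replicate block the difference from pMo was 0.86 (edgeR adjusted p = 0.641). The list sum was 16378, 5797 and 5615 CPM in intMo and 10204, 2846 and 2815 CPM in pMo. The single call was lost without intMo 0, and the count was 3 without cMo 0, 2 without cMo 2 and 10 without pMo 0. Of 19 inflammatory cytokine and NF-kB target genes, 3 were called higher and 1 lower, with a median log2 of 0.23, and the lower call was lost in 7 of the 9 fits, all but those without cMo 0 or intMo 0. Il1b, interleukin 1 beta, had 1549, 1178 and 939 CPM in intMo, 1643, 1356 and 1373 CPM in pMo and 30.7 to 42.7 CPM in cMo, and was called higher than the average (log2 2.40 ± 0.17, edgeR adjusted p = 0.000144) but not apart from pMo (log2 -0.25, adjusted p = 0.581). Of 23 immediate early genes 7 were called higher and none lower (median log2 0.92, 11 called with DESeq2 and 5 called without intMo 0, intMo 2, pMo 1 or pMo 2), and of 20 interferon-stimulated genes none was called by edgeR or limma voom and 1 by DESeq2 (median log2 0.70, and 5 with an unadjusted p under 0.05), whereas edgeR with the replicate block called 12 higher. Their sum was 1749, 4060 and 3922 CPM in intMo and 1350, 3618 and 3666 CPM in pMo, so each intMo library was above the pMo library of its number. Of 10 tested Notch pathway genes 3 were called higher (median log2 0.71, and 2 called without intMo 0, intMo 2, pMo 1 or pMo 2). No inflammatory, immediate early or Notch member was called above both subsets, though the replicate block called 1 immediate early and 1 Notch gene so. The median differences of these lists from pMo were -0.71, -0.14 and -0.25, and intMo had the middle mean in 13, 15 and 5 members. Of 15 phagocytosis receptors 4 were called higher and 2 lower (median log2 -0.13), and the lower calls were lost in 8 of the 9 fits, all but that without cMo 0, and with the replicate block.

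**Figure D5:**
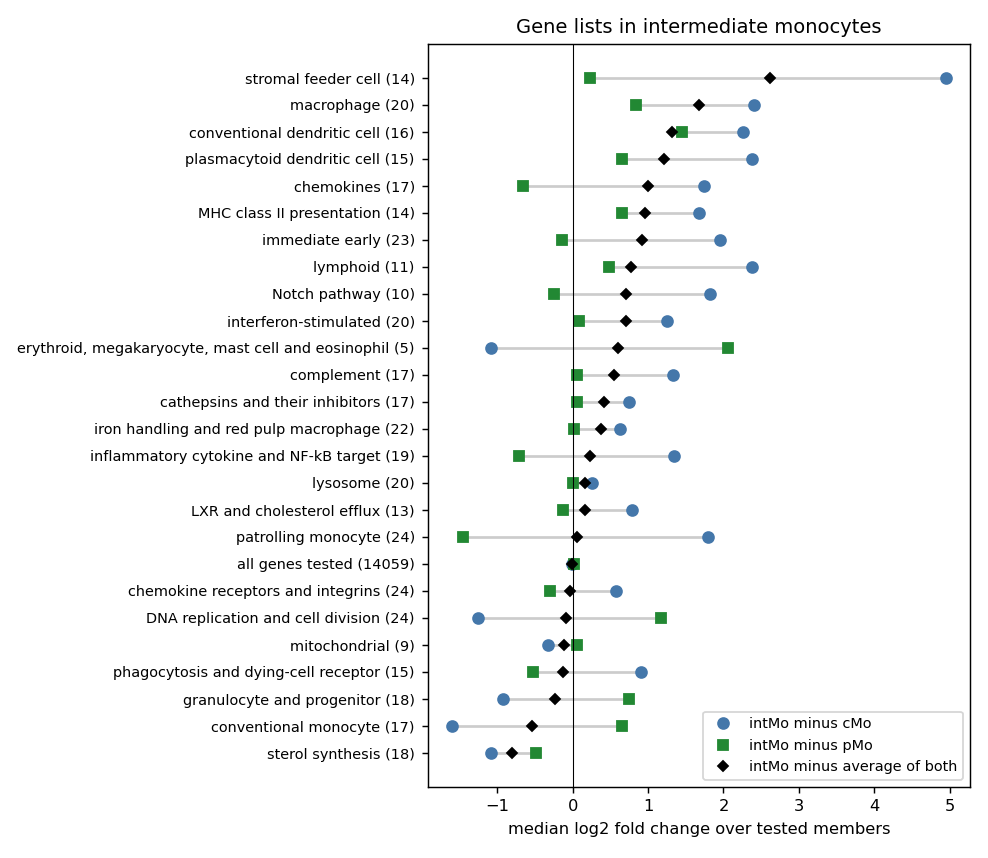
Median log2 fold change over the tested members of each gene list, of intMo over cMo (circles), over pMo (squares) and over the average of both (diamonds), with the number of members in brackets. Circles and squares on opposite sides of 0 mark lists whose median is above 1 subset and below the other, and the sterol synthesis list has all 3 points below 0.

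Stromal genes moved with the average contrast. Of 14 tested genes of stromal feeder cells, 10 were called higher, none lower (1 with DESeq2) and none above both subsets, and the median log2 was 2.62 against the average, 4.95 against cMo and 0.23 against pMo. The summed level of the 14 tested genes was 120 to 196 CPM in cMo, 251 to 788 in intMo, where 788 was that of library 0, and 267 to 535 in pMo. Dcn, listed but not tested, was at 0 counts in every library. Igfbp4, the most abundant member, went the other way, though not called in the average contrast (log2 -0.55, edgeR adjusted p = 0.0713). It was called below cMo in all 9 fits without 1 library, at up to 0.00332. With the replicate block it lay 1.64 below cMo on the log2 scale (edgeR adjusted p = 0.000659). Cxcl12, a chemokine of marrow stroma named after its values were seen, had 3.63, 2.60 and 2.20 CPM in cMo, 138, 70.2 and 73.0 CPM in intMo and 86.0, 87.6 and 63.6 CPM in pMo. Without intMo 0, 7 of the genes were called higher and intMo had the highest mean in 1 of the 14, where with all libraries it had it in 12. The part of stromal RNA in the average contrast, or in the calls against both subsets, was not tested. Stromal genes outside the list were not counted. Spon1, a matrix protein gene, and Ptgis, with 0 counts in cMo, are not in the list and were called above both subsets. The part of stromal RNA in their levels was not tested. Granulocyte and progenitor genes had none called higher (1 with the replicate block or without cMo 0, 0 with DESeq2) and 1 of 18 lower (median log2 -0.24), a call lost without intMo 0 or intMo 2, and S100a9, a calcium-binding protein of neutrophils, had 105, 1410 and 1245 CPM in intMo with no call (log2 0.18 ± 0.88, edgeR adjusted p = 0.944). Of 5 tested genes of erythroid, megakaryocyte, mast cell and eosinophil lines none was called by edgeR, DESeq2 or limma voom or had an unadjusted p under 0.05 (median log2 0.60).

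Some lists changed when library 0 of every subset was left out, which leaves 2 libraries a subset. In libraries 1 and 2 alone, 15 of 20 interferon-stimulated genes were called higher by edgeR where none was with all libraries, 3 of them above both subsets. Of the MHC class II list 12 of 14 were then higher and 8 above both, and of the macrophage list 15 of 20 were higher, 2 lower and 12 above both. Granulocyte and progenitor genes turned, with 12 of 18 higher, 7 above both and a median log2 of 0.81. Their summed level was 13726, 2512 and 2829 CPM in cMo, 567, 4561 and 4278 CPM in intMo and 659, 2793 and 2850 CPM in pMo, so library 0 was the highest of cMo and the lowest of the other subsets. Division genes had 8 of 24 higher, with intMo still between the others for all 24. Conventional monocyte genes had 7 of 17 lower and none higher. Stromal genes had 12 of 14 higher and 1 above both, with intMo the highest mean in 4. The part of the library 0 samples in these differences was not tested.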

How the data were processed

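The authors deposited 1 table of estimated counts for genes, from stranded mRNA libraries. The submitters' processing notes name kallisto 0.46.1 and mm10. RNAzol extraction and the NEBNext Ultra II kit are per the labels' protocols. Values were rounded to whole numbers, scaled by TMM, filtered by filterByExpr and tested with edgeR 4.0.16 (R 4.3.3, glmQLFit robust, glmQLFTest), with Benjamini-Hochberg adjustment over 14059 genes and calls under 0.05. The contrast weighted intMo 1 and cMo and pMo -0.5 each. SE is the log2 change divided by the square root of F. Alternatives used limma 3.58.1 and DESeq2 1.42.0. GENCODE M21 gave symbols for 46005 of 46517 identifiers.

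Members and gene lists were chosen with earlier results of these data known. Genes named by rule were the 5 markers, the 10 highest and 10 lowest by margin among genes of at least 20 CPM, and up to 2 members a list called against both subsets, or else its most abundant member; others are said to be named after their values were seen. On simulated data for 14059 genes in the average contrast, 44% of changes of log2 1 and 81% of those of log2 2 were recovered. Calls against both subsets recovered 20% and 77% of them. The simulation gave cMo and pMo the same mean and drew libraries independently, with no offset shared by a library's genes, unlike library 0 here. Bounds and 95% intervals on ratios cover counting error only. Some genes that met these rules are not reported here. The labels' replicate numbers were checked by correlating deviations from subset means: all 3 same-numbered pairs of intMo and pMo were over 0.1 (0.59, 0.3 and 0.27), none of cMo and intMo and 2 of 3 of cMo and pMo. The unlike-numbered pairs of intMo 1 with pMo 2 and of intMo 2 with pMo 1 had 0.4 and 0.28. Unlike-numbered pairs of intMo and pMo that held a library 0 had -0.49 to -0.38. The values therefore set library 0 of intMo and pMo apart from the others and do not show that libraries 1 and 2 are paired by number. Calls changed with the number as a block are given beside their results or in the closing section.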

Additional observations from a re-analysis of the deposited data

How the results depend on the processing

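Counts of genes called in the average contrast (925 higher, 310 lower) and against both subsets (132 highest, 76 lowest) stayed within 1.5 times with RLE or upper quartile scaling, other filters on low counts and limma voom. DESeq2 called 1277 higher, 623 lower, 276 highest and 147 lowest. Libraries 1 and 2 alone gave 1401, 621, 467 and 188, with fewer samples, and the cause was not tested. Leaving out 1 library gave 500 to 1017 higher, 144 to 390 lower, 34 to 212 highest and 27 to 99 lowest. Taking the average call with no overlap of libraries in place of both pairwise calls gave 442 highest and 192 lowest. With the replicate block 1018 were higher, 350 lower, 172 highest and 89 lowest, and most calls it changed stand beside their results. Of counts not given there, it called 9 plasmacytoid genes higher and 5 above both, and 3 conventional dendritic genes above both. It called 7 iron, 6 complement, 8 immediate early and 11 stromal genes higher, and 1 complement and 3 patrolling genes below both. Of chemokine receptors and integrins it called 2 lower and 3 above both, and of conventional monocyte genes none higher. For the other genes given with a p-value in the report, the block kept all calls except those of Mki67 and Cd74 against cMo (edgeR adjusted p = 0.0281 and 0.051). The sign turned for 4 genes that were not called, and the cause was not tested. Lrp1 ran from -0.57 to 0.0384 with 1 library left out. Mki67 was -0.22 with limma voom, -0.15 with the replicate block and -0.29 to 0.55 with 1 library left out. S100a9 was -0.0377, -0.0815 and -0.26 to 0.88 in the same fits. mt-Co1 was 0.0102 with upper quartile scaling and -0.0887 to 0.0416 with 1 library left out. Depth limits genes of a few counts, and 36 of the 132 highest genes had a mean under 5 CPM in intMo.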
